A study of Mus musculus with 8 samples.

Results

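Transcript levels of 7 actin-binding genes were examined in 4 mouse mammary tumour cell lines. The genes were the plastins *Lcp1*, *Pls1* and *Pls3*, the bundlers *Fscn1* and *Vil1*, the membrane linker *Ezr* and the actin regulator *Coro1a*, which are 7 of the 27179 identifiers in the count matrix. The group was chosen on these data: *Lcp1* had stood out as high in 4T1 and 4T1.2 when set against 66cl4 and 67NR, and the other genes were added by their function to ask whether the remaining plastins ran the opposite way. The contrast of 4T1 and 4T1.2 with 66cl4 and 67NR is therefore given for these genes as a description with no test. Tests were made within each pair of lines, comparisons that the choice of *Lcp1* did not use. Earlier results of these data were known when the other genes were added. A low-count filter was passed by 6 of the 7 genes, *Vil1* being the exception, and 13924 genes were tested in all.

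The 4 lines, 4T1.2, 4T1, 66cl4 and 67NR, are related lines of BALB/c origin kept in culture, of which the study describes 66cl4 and 67NR as weakly metastatic compared with 4T1 and 4T1.2. No treatment was given to any line, and the labels list neither a genetic change nor an agent. Each line gave 2 biological replicates, so the error terms describe spread within a cultured line and carry no information on other tumours. Total counts per library ran from 37159840 to 66269681, and log2 CPM of the 2 replicates correlated across genes at r = 0.9945 to 0.9963 in the 4 lines. RPKM, used below for every level, is the count of a gene divided by its exon length in kb and by the scaled total of its library. Because RNA came from whole cultures, fewer cells with a transcript and less of it per cell cannot be told apart.

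Plastins, also called fimbrins, carry paired actin-binding domains that hold neighbouring filaments in tight parallel bundles, and calcium binding loosens them. *Lcp1* encodes L-plastin, the form of blood cells that also appears in many cancer cells. *Pls1* encodes I-plastin of the intestinal brush border and inner-ear hair cells, and *Pls3* encodes T-plastin of most solid tissues. Fascin packs filaments in filopodia, villin bundles or severs filaments in microvilli, ezrin ties filaments to the plasma membrane, and coronin 1A works with the Arp2/3 complex, mainly in leucocytes.

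The sequences just upstream of the plastin genes are printed because the levels of the 3 genes differed so widely in the same cells. They come from RefSeq (GRCm38.p6) and run 5′ to 3′ toward the transcription start, up to the first base annotated as an exon. Capitals mark matches on either strand to 2 motifs, the GC box (GGGCGG or CCGCCC) in *Lcp1* and an E-box (CAGGTG or CACCTG) in *Pls1*.
Lcp1, chr14:75130873-75131100, plus strand: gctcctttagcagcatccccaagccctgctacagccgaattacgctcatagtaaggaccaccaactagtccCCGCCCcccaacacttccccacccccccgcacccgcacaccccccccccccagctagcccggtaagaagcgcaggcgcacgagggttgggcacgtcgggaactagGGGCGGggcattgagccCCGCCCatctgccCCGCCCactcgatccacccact
Pls1, chr9:95845312-95845529, minus strand: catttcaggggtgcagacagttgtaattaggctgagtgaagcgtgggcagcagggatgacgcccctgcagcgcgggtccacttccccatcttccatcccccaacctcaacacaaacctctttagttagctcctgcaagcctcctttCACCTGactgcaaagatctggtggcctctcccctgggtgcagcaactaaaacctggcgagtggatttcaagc
Pls3, chrX:75875183-75875432, minus strand: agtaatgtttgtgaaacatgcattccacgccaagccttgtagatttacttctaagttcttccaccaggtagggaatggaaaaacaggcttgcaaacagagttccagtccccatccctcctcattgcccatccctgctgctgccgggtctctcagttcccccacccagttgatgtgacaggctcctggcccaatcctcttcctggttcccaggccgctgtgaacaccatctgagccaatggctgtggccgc

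Over the 250 bases before the RefSeq start, *Lcp1* held 4 GC boxes and had 66.0% G and C with 16 CpG dinucleotides. This window and those below were taken whole. They include bases annotated as exon that the printed sequences leave out, 22 for *Lcp1* and 32 for *Pls1*. The window of *Pls1* had 58.0% G and C with 10 CpG, and that of *Pls3* had 54.0% with 4 CpG, against a median of 52.4% and 6 CpG over all 32851 promoters of this length. A GC box was present in 32.7% of all promoters and this E-box in 17.2%. None of the 3 windows matched an AP-1 site (TGACTCA or TGAGTCA, in 4.46% of promoters), a PU.1 core (GAGGAAGT or ACTTCCTC, in 2.44%) or a TATA box (TATAAA or TTTATA, in 12.4%). RefSeq lists 2 start sites for *Lcp1* and 3 for *Pls3*. The window of the second *Lcp1* start had no GC box, 41.6% G and C and 3 CpG, and 93 of its 250 bases were annotated as exon. That of the second *Pls3* start had 1 GC box, 56.4% and 5 CpG, and that of the third had none, 41.6% and 3 CpG. In these *Pls3* windows 12 and 145 bases were annotated as exon. The gene-level counts do not show which start was used. Of the 75-base stretches of the *Lcp1* transcripts, 4.82% also occurred in transcripts of other genes, mostly the opposite-strand gene *Gm15628*, and 0.0% did so for each of the other 6 genes. No stretch of *Pls1* or *Pls3* of this length thus occurred in another plastin. Exons of *Gm15628* and *Gm15629* covered 5.58% of the 9504 exonic bases that GENCODE gives *Lcp1*, on the other strand. The counts came with a shorter exonic length for *Lcp1*, 4337 bases, for which the overlap was not measured. Whether counting used strand is not given in the sources used here.

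*Lcp1* (chromosome 14, 75131105 to 75230842, GRCm38) spanned the widest range of the 7 genes. It reached 141.8 and 143.7 RPKM in the 4T1 libraries and 22.23 and 23.65 RPKM in 4T1.2. In 67NR it stood at 1.239 and 1.132 RPKM and in 66cl4 at 0.1171 and 0.1544 RPKM, the last resting on 23 and 30 counts. The 4 lines did not overlap, and their order was 4T1, 4T1.2, 67NR and 66cl4. Averaged on the fitted log2 scale, 4T1 and 4T1.2 stood 143-fold above 66cl4 and 67NR, the difference on which the gene was picked. Mean RPKM was 82.87 over 4T1 and 4T1.2 and 0.661 over 66cl4 and 67NR. Within both pairs of lines, comparisons not used to pick the gene, *Lcp1* also differed. It was 6.22-fold lower in 4T1.2 than in 4T1 (log2 difference -2.64, SE 0.10, adjusted p = 1.4e-06, from the quasi-likelihood F-test of edgeR with Benjamini-Hochberg adjustment over all genes). It was 8.67-fold lower in 66cl4 than in 67NR (log2 difference -3.12, SE 0.15, adjusted p = 5.19e-07 by the same edgeR test). Among the genes tested, 96.2% lay below the mean RPKM of *Lcp1* in 4T1 and 70.8% in 4T1.2, against 24.1% in 67NR and 11.7% in 66cl4.

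*Pls1* (chromosome 9, 95752642 to 95845306) was a low transcript in all 8 libraries. It had 0.8504 and 0.8169 RPKM in 4T1 and 0.6347 and 0.7059 RPKM in 67NR. In 4T1.2 it had 0.09526 and 0.1002 RPKM, from 20 and 21 counts, and in 66cl4 0.01793 and 0.03622 RPKM, from 3 and 6 counts. The high lines were thus 1 of each pair, 4T1 and 67NR, and the pairs did not separate. Averaged over both lines of a pair on the log2 scale, the fitted difference between the pairs was 1.07 (SE 0.23), 4T1 and 4T1.2 being higher. It leaned on the few counts of 66cl4, being 0.86 without 66cl4 replicate 1 and 1.36 without 66cl4 replicate 2. Mean RPKM was 0.466 over 4T1 and 4T1.2 and 0.349 over 66cl4 and 67NR. Within the pairs *Pls1* was 8.49-fold lower in 4T1.2 than in 4T1 (log2 difference -3.08, SE 0.23, adjusted p = 3.4e-05, edgeR's quasi-likelihood test). Between 66cl4 and 67NR the log2 difference was -4.61 (SE 0.31, adjusted p = 3.86e-06 by edgeR), a 24.3-fold lower level in 66cl4 that rests on its 9 counts in all. *Lcp1* and *Pls1* were the 2 members lower in both within-pair comparisons, a pattern seen in 3.07% of all genes tested.

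*Pls3* (X chromosome, 75785653 to 75875182) was abundant everywhere and varied little. The highest pair of libraries was that of 66cl4, at 139.5 and 113.6 RPKM, followed by 4T1.2 at 113.6 and 121.4 RPKM, 4T1 at 111.6 and 119.6 RPKM, and 67NR at 84.53 and 82.21 RPKM. The values of 66cl4, 4T1.2 and 4T1 overlapped, and only 67NR stood below the rest. The ratio of the highest to the lowest line mean was 1.52, compared with 1050 for *Lcp1* and 30.8 for *Pls1*. No difference was called between 4T1.2 and 4T1 (log2 difference 0.02, SE 0.11, adjusted p = 0.922 by edgeR). *Pls3* was 1.52-fold higher in 66cl4 than in 67NR (log2 difference 0.60, SE 0.11, adjusted p = 0.00158 by edgeR), opposite in direction to *Lcp1* and *Pls1* in the same comparison. Between the pairs of lines its fitted difference was 0.18 on the log2 scale (SE 0.08), slightly higher in 4T1 and 4T1.2. Neither of the other plastins thus mirrored *Lcp1* across the pairs: where *Lcp1* was highest, in 4T1, *Pls3* stood at 115.6 ± 5.67 RPKM (SD, n = 2), and where it was lowest, in 66cl4, *Pls3* stood at 126.5 ± 18.3 RPKM (SD, n = 2).

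**Figure D1:**
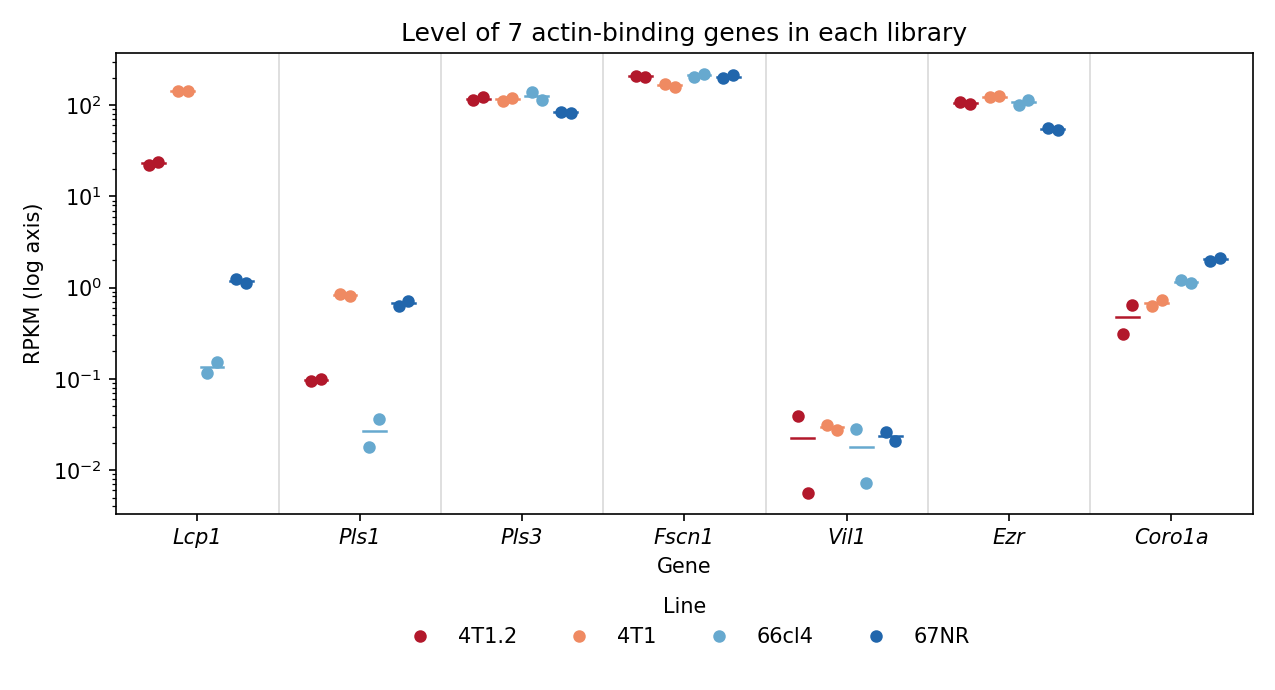
RPKM of the 7 genes in each library on a log axis, grouped by gene and coloured by line; points are libraries and short bars are means of the 2 libraries of a line. *Lcp1* and *Pls1* spread over line means that differ 1050-fold and 30.8-fold, while *Pls3* and *Fscn1* stay within 1.52-fold and 1.29-fold.

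The makeup of the plastin pool followed from these levels. *Lcp1* made up 55.1% of the summed plastin RPKM in 4T1, 16.3% in 4T1.2, 1.39% in 67NR and 0.110% in 66cl4. *Pls3* was the larger part in the other 3 lines, with 83.6% in 4T1.2, 97.8% in 67NR and 99.9% in 66cl4, and made up 44.6% in 4T1. The share of *Pls1* stayed at or below 0.787% in every line. The ratio of *Lcp1* to *Pls3*, which does not depend on how libraries are scaled, was 1.271 and 1.201 in the 4T1 libraries, 0.1957 and 0.1948 in 4T1.2, 0.01466 and 0.01377 in 67NR, and 0.0008397 and 0.001359 in 66cl4. Summed over the 3 genes, the pool was 259.2 ± 6.99 RPKM in 4T1, 140.6 ± 6.49 in 4T1.2, 126.7 ± 18.3 in 66cl4 and 85.2 ± 1.67 in 67NR (SD, n = 2 each). The larger pool of 4T1 was therefore *Lcp1* on top of a level of *Pls3* that overlapped those of 4T1.2 and 66cl4.

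**Figure D2:**
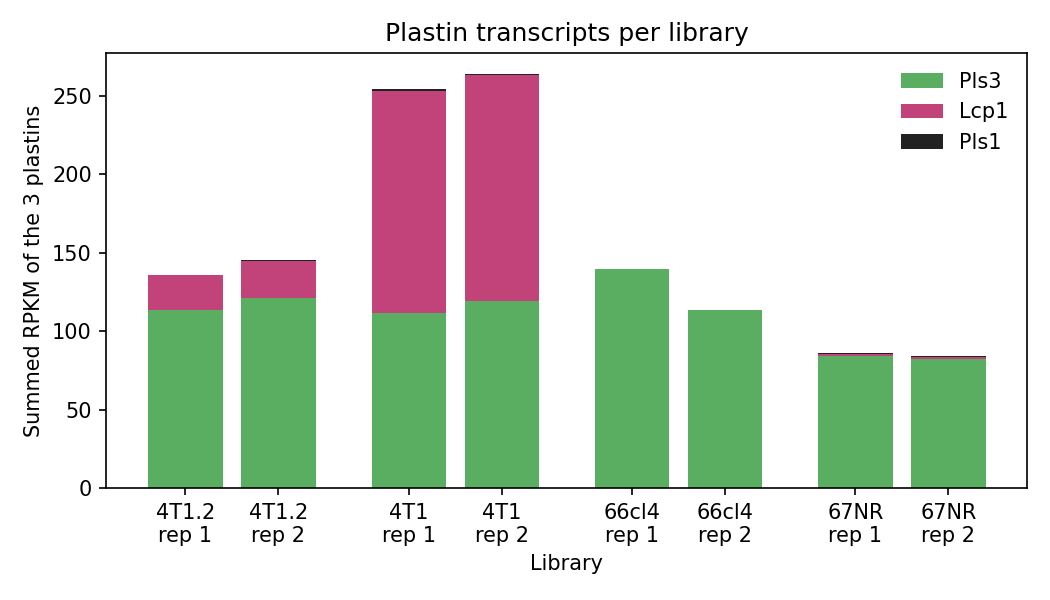
Summed RPKM of the 3 plastins in each library (bars from 0), split into *Pls3*, *Lcp1* and *Pls1*. *Lcp1* is the larger part only in the 2 libraries of 4T1, at 55.78% and 54.41%, and *Pls1* is barely visible.

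*Fscn1* (chromosome 5, 142960355 to 142973189), the fascin gene, was the most abundant of the 7 in each line and the flattest of those tested. Its 66cl4 libraries had 203.5 and 219.7 RPKM, those of 67NR 197.2 and 213.3 RPKM, those of 4T1.2 210.4 and 202.3 RPKM, and those of 4T1 170.7 and 158.0 RPKM. The first 3 lines overlapped, and 4T1, the line with the highest *Lcp1*, lay below them. *Fscn1* was 1.26-fold higher in 4T1.2 than in 4T1 (log2 difference 0.33, SE 0.09, adjusted p = 0.0339 by edgeR). That call was lost with an adjusted p by edgeR of 0.166 without 4T1.2 replicate 1, 0.105 without 4T1.2 replicate 2, 0.112 without 4T1 replicate 2, 0.0649 without 67NR replicate 1, 0.0644 without 67NR replicate 2, and 0.091 when the 4 libraries of 4T1.2 and 4T1 were fitted alone. No difference was called between 66cl4 and 67NR (log2 difference 0.04, SE 0.09, adjusted p = 0.73 by edgeR).

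*Vil1* (chromosome 1, 74409384 to 74435560), the villin gene, had between 1 and 7 counts in every library and could not be tested. Its counts were 6 and 4 for 4T1, 7 and 1 for 4T1.2, 3 and 4 for 67NR, and 4 and 1 for 66cl4. At so few counts the order of the lines carries no information, and no comparison was made.

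*Ezr* (chromosome 17, 6738131 to 6782780) behaved like *Pls3* in that 67NR alone was low. Ezrin transcripts stood at 122.5 and 125.6 RPKM in the 4T1 libraries, 107.2 and 104.0 RPKM in those of 4T1.2, 100.9 and 114.4 RPKM in those of 66cl4, and 56.52 and 53.58 RPKM in those of 67NR. The libraries of 4T1.2 and 66cl4 overlapped, and 4T1 lay above both. The level in 66cl4 was 1.96-fold that in 67NR (log2 difference 0.97, SE 0.09, adjusted p = 2.68e-05 by edgeR). Between 4T1.2 and 4T1 the libraries did not overlap, but the difference did not pass the threshold (log2 difference -0.23, SE 0.09, adjusted p = 0.106 by edgeR).

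*Coro1a* (chromosome 7, 126699774 to 126704816) ran the other way from *Lcp1* across the pairs, at low levels. It had 1.982 and 2.131 RPKM in 67NR, 1.203 and 1.118 RPKM in 66cl4, 0.6255 and 0.7295 RPKM in 4T1, and 0.3087 and 0.6407 RPKM in 4T1.2, from 28 to 210 counts. All libraries of 66cl4 and 67NR lay above all those of 4T1 and 4T1.2, while 4T1 and 4T1.2 overlapped. The fitted difference of 4T1 and 4T1.2 from 66cl4 and 67NR was -1.45 on the log2 scale (SE 0.20). *Coro1a* was 1.78-fold lower in 66cl4 than in 67NR (log2 difference -0.83, SE 0.26, adjusted p = 0.0276 by edgeR). The call did not survive leaving out any 1 of the 4 libraries concerned, the adjusted p by edgeR being 0.0762 without 66cl4 replicate 1, 0.105 without 66cl4 replicate 2, 0.0787 without 67NR replicate 1 and 0.135 without 67NR replicate 2. Between 4T1.2 and 4T1 the log2 difference was -0.50 (SE 0.31, adjusted p = 0.31 by edgeR), and it was -0.07 without 4T1.2 replicate 1 and -1.13 without 4T1.2 replicate 2.

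In counts, 3 of the 6 members tested were called between 4T1.2 and 4T1, 1 higher and 2 lower in 4T1.2, where 19.3% of all genes were called, 9.37% higher and 9.91% lower. Between 66cl4 and 67NR, 5 of 6 were called, 2 higher and 3 lower in 66cl4, against 44.7% of all genes, 22.2% higher and 22.4% lower. With 6 genes these shares are descriptions only. The members did not move as a group: *Lcp1*, *Pls1* and *Coro1a* were lower in 66cl4 than in 67NR, and *Pls3* and *Ezr* were higher.

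**Figure D3:**
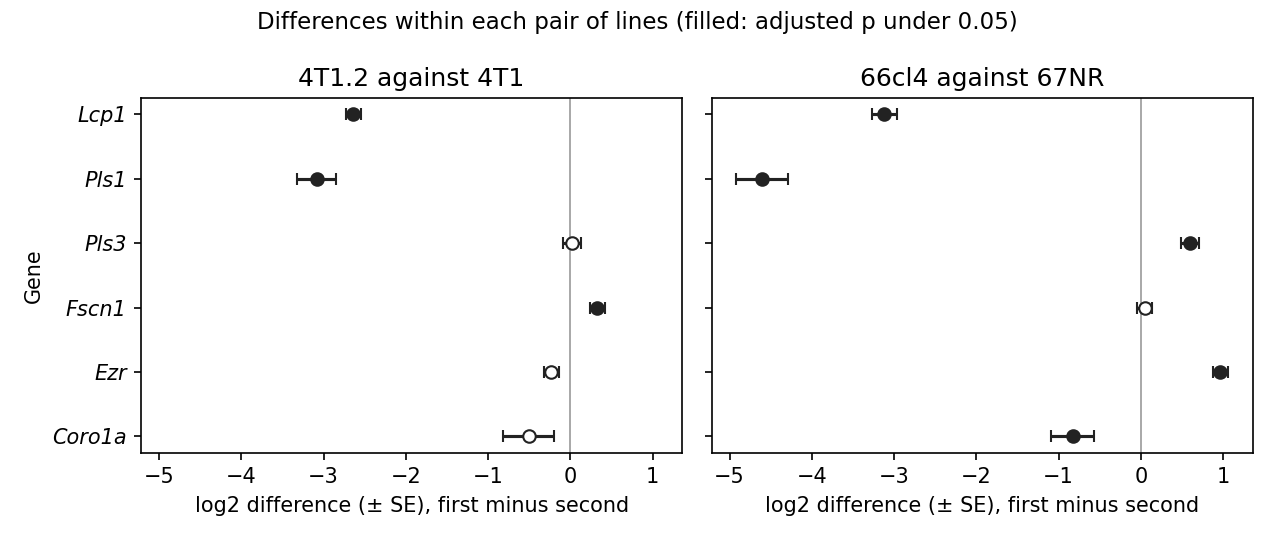
Fitted log2 difference of each tested gene (points, with SE bars) for 4T1.2 minus 4T1 and 66cl4 minus 67NR; filled points passed an adjusted p of 0.05. *Lcp1* and *Pls1* lie at -2.64 or below in both panels, and the other 4 genes lie between -0.83 and 0.97.

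Further genes of actin organisation were read from 7 lists of 100 genes that hold no member, 88 of which were tested. In the contrast of 4T1 and 4T1.2 with 66cl4 and 67NR, 37 were higher and 30 lower, where 76.7% of all genes were called, 38.1% higher and 38.6% lower. The median log2 difference was 0.09 for the list genes and -0.013 for all genes. Of all genes, 19.3% were called between 4T1.2 and 4T1, 9.37% higher and 9.91% lower. For 66cl4 against 67NR that share was 44.7%, 22.2% higher and 22.4% lower. Between 4T1.2 and 4T1, 12 of the 88 list genes were higher and 11 lower, with a median of -0.01 against 0.0 for all genes. These 23 calls fell to 13 without 4T1.2 replicate 1, to 15 without 4T1.2 replicate 2, and to 14 with the 4 libraries of that comparison alone. Between 66cl4 and 67NR, 35 were higher and 9 lower in 66cl4, with a median of 0.28 (0.25 with genes at 0 counts set to their bound) against 0.0, and the 44 calls fell to 28 without 67NR replicate 1.

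Among the cross-linkers and bundlers other than the members, 12 of 25 were higher and 11 lower in 4T1 and 4T1.2 (median log2 difference 0.14, with 76.7% of all genes called). *Baiap2l1*, which shapes membrane protrusions, had 7.05 RPKM in 4T1 and 6.89 RPKM in 4T1.2 but only 0.0649 RPKM in 66cl4 and 0.0660 RPKM in 67NR (log2 difference 6.72, SE 0.14, adjusted p = 7.44e-11 by edgeR). *Espn*, the espin gene of microvillar and stereociliary bundles, had 12.01 RPKM in 4T1 and 0.975 RPKM in 4T1.2, with 1 to 5 counts in each library of 66cl4 and 67NR. Like *Lcp1*, it was below its 4T1 level in 4T1.2 (log2 difference -3.62, SE 0.23, adjusted p = 1.49e-05 by edgeR). *Synpo*, which encodes synaptopodin, ran the other way, with a log2 difference of -2.09 (SE 0.10) between the pairs. In the comparison of 66cl4 with 67NR, 14 of the 25 were higher in 66cl4 and 1 was lower (median 0.39, with 44.7% of all genes called). Between 4T1.2 and 4T1, 4 of the 25 were higher and 3 lower (median 0.02, with 19.3% of all genes called).

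Of the 7 relatives of villin in the gelsolin family, 2 were higher and 1 was lower in 4T1 and 4T1.2 (median -0.02, with 76.7% of all genes called). *Capg*, which caps filament ends, was the higher of these by level, at 435.8 RPKM in 4T1 and 335.7 RPKM in 4T1.2, compared with 263.9 RPKM in 67NR and 238.8 RPKM in 66cl4 (log2 difference 0.61, SE 0.09). *Vill*, a villin-like gene and the other higher one, had 1.26 RPKM in 4T1 and 0.127 RPKM in 4T1.2. Its levels were 0.122 RPKM in 66cl4 and 0.233 RPKM in 67NR, so only 4T1 stood apart. *Gsn*, the gene of the severing protein gelsolin, was the lower one, with 142.9 RPKM in 4T1 and 55.2 RPKM in 4T1.2. It had 101.3 RPKM in 66cl4 and 121.8 RPKM in 67NR, so 4T1 was the highest line and only 4T1.2 was low. Set against 4T1, *Vill* and *Gsn* both had less transcript in 4T1.2 (log2 differences -3.30, SE 0.22, and -1.37, SE 0.11). In all, 3 of the 7 were lower in 4T1.2 than in 4T1 and the others were not called (median -0.53, with 19.3% of all genes called). In 66cl4 against 67NR, 1 of the 7 was higher and 2 were lower (median -0.14, with 44.7% of all genes called). *Vill* and *Scin*, which encodes the severing protein scinderin, were the 2 of the 88 list genes that were lower in both within-pair comparisons, as *Lcp1* and *Pls1* were, a share of 2.27% beside the 3.07% of all genes.

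Of 15 genes for proteins related to ezrin or working with it, 7 were higher and 3 lower in 4T1 and 4T1.2 (median 0.14, with 76.7% of all genes called). *Podxl*, a sialomucin that ezrin anchors, had 18.0 RPKM in 4T1 and 20.7 RPKM in 4T1.2, while each 66cl4 and 67NR library held 6 to 15 counts (log2 difference 8.95, SE 0.17). *Slc9a3r2*, a scaffold of the membrane cortex, had 11.9 and 12.5 RPKM in 4T1 and 4T1.2, compared with 0.187 RPKM in 66cl4 and 0.253 RPKM in 67NR. *Slk*, a kinase that phosphorylates these proteins, and *Nf2*, the merlin gene, were lower in 4T1 and 4T1.2 by smaller steps, with log2 differences of -0.66 (SE 0.08) and -0.42 (SE 0.07). Within the pairs, 1 of the 15 was higher and 2 were lower in 4T1.2 than in 4T1 (median -0.01, with 19.3% of all genes called). In 66cl4 against 67NR, 4 of the 15 were higher and 3 lower (median 0.18, with 44.7% of all genes called).

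The other coronins did not follow *Coro1a*: 4 of the 6 tested were higher in 4T1 and 4T1.2 and 1 was lower (median 0.93, with 76.7% of all genes called). *Coro1c*, the widely expressed form, had 54.6 RPKM in 4T1 and 60.96 RPKM in 4T1.2, above the 34.3 RPKM of 66cl4 and the 34.1 RPKM of 67NR (log2 difference 0.75, SE 0.05, adjusted p = 7.51e-07 by edgeR). *Coro6* had 8.38 and 10.04 RPKM in 4T1.2 and 4T1, while 66cl4 and 67NR libraries held 3 to 6 counts. *Coro2b* stayed low, at 6 to 44 counts in the libraries of 4T1 and 4T1.2 and 0 to 2 counts in the others. *Coro7*, which is linked to the Golgi, was the lower one, with a log2 difference of -0.30 (SE 0.09). Its levels were 5.055 RPKM in 4T1.2, 4.81 in 4T1, 5.13 in 67NR and 7.19 in 66cl4, so only 66cl4 stood apart. Within the pairs, 1 of the 6 was called between 4T1.2 and 4T1, as higher (median 0.11, with 19.3% of all genes called). In 66cl4 against 67NR, 2 of the 6 were higher and 1 lower (median 0.43, with 44.7% of all genes called).

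Brush border genes, the company in which *Pls1* and *Vil1* are found in the intestine, were mostly at low counts, and 9 of the 14 listed were tested. Between the pairs, 4 were higher and 4 lower in 4T1 and 4T1.2 (median 0.18, with 76.7% of all genes called). *Misp*, which encodes a cortical actin-binding protein, had 9.86 RPKM in 4T1 and 3.71 RPKM in 4T1.2, with 15 counts in each 66cl4 library and 0 in those of 67NR. *Myo1d*, an unconventional myosin, had 57 to 116 counts in 4T1 and 4T1.2 and 0 or 1 in the other libraries. *Cobl* and *Ush1c*, which encode a filament nucleator and a microvillar scaffold, had 0 counts in 4T1 and 4T1.2 and 4 to 26 and 4 to 16 in the other libraries. Within the pairs, *Misp* alone was called between 4T1.2 and 4T1, as lower (median 0.0, with 19.3% of all genes called). In 66cl4 against 67NR, 2 were higher and 2 lower, with 44.7% of all genes called (median 1.12, or 0.0 with genes at 0 counts set to their bound).

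Genes of filopodium formation, the structures that fascin bundles, split into 5 higher and 9 lower of 17 in 4T1 and 4T1.2 (median -0.28, with 76.7% of all genes called). *Evl*, which elongates filaments at filopodium tips, had 29.1 RPKM in 66cl4 and 18.6 RPKM in 67NR but 0.196 RPKM in 4T1.2 and 0.511 RPKM in 4T1 (log2 difference -6.20, SE 0.13, adjusted p = 7.3e-11 by edgeR). *Fgd1*, an activator of Cdc42, was lower too, with a log2 difference of -1.14 (SE 0.11). *Fmnl2*, a formin, was higher, with a log2 difference of 0.98 (SE 0.07), and *Fgd4* was called higher from at most 38 counts in a library. Between 4T1.2 and 4T1, 4 of the 17 were higher and 2 lower (median -0.06, with 19.3% of all genes called). Between 66cl4 and 67NR, 5 of the 17 were higher and 1 was lower (median 0.23, with 44.7% of all genes called).

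Of the actins, transgelins and calponins, 3 of 10 were higher and 2 lower in 4T1 and 4T1.2 (median 0.23, with 76.7% of all genes called). The cytoplasmic actin gene *Actg1* had 295.4 RPKM in 4T1, 253.2 RPKM in 4T1.2, 214.8 RPKM in 66cl4 and 164.6 RPKM in 67NR (log2 difference 0.54, SE 0.07). *Tagln2*, a transgelin, was higher as well (log2 difference 1.23, SE 0.06). The smooth muscle actins *Acta2* and *Actg2* were lower, by log2 differences of -3.81 (SE 0.24) and -3.41 (SE 0.18), from levels of at most 2.80 RPKM in any line. Within the pairs, 7 were called between 66cl4 and 67NR and 2 between 4T1.2 and 4T1, each as higher in the first line (medians 0.39 and 0.16, with 44.7% and 19.3% of all genes called).

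**Figure D4:**
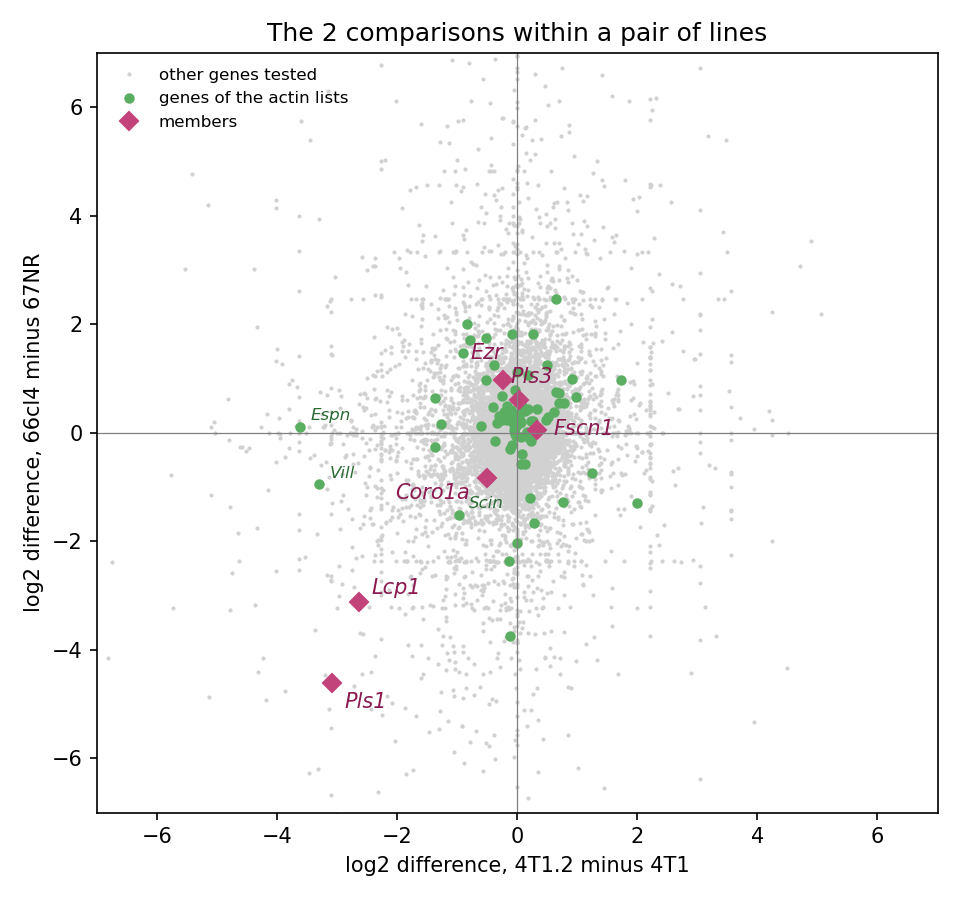
Fitted log2 difference of 66cl4 minus 67NR (vertical) against that of 4T1.2 minus 4T1 (horizontal) for the 13924 genes tested, with the actin list genes in green and the members as diamonds; 70 genes lie outside the axes, which end at 7 on the log2 scale. *Lcp1* and *Pls1* sit in the lower left, at -2.64 and -3.12 and at -3.08 and -4.61, and the other 4 members lie near the middle.

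Markers of cell types in which some members are typical were read in the same libraries. L-plastin and coronin 1A are abundant in leucocytes. Of 16 leucocyte markers, 12 had at most 35 counts in each of the 8 libraries. This limit equals the highest count of *Laptm5* and of *Cd79a*. Among the 12, 3 (*Tyrobp*, *Cd3e* and *S100a9*) had 0 in all libraries, and *Ptprc*, the pan-leucocyte gene CD45, had at most 2. The summed leucocyte marker level was 137.6 to 139.0 RPKM in 4T1, 114.4 to 119.1 in 4T1.2, 26.1 to 26.9 in 67NR and 17.4 to 18.0 in 66cl4. Most of it was *Itgb2*, the integrin beta chain of leucocytes, with 121.5, 89.9, 22.0 and 15.1 RPKM in these lines, the order seen for *Lcp1*. The line means of *Cd68* and *Was* had that order too, at lower levels, with 4.90 and 1.41 RPKM in 4T1. Without *Itgb2* the sum was highest in 4T1.2, at 24.9 to 28.9 RPKM, ahead of 15.2 to 18.6 in 4T1, 4.25 to 4.64 in 67NR and 2.30 to 3.08 in 66cl4. In 4T1.2 most of that remainder was *S100a8*. *Itgb2* itself was lower in 66cl4 than in 67NR and in 4T1.2 than in 4T1, with log2 differences of -0.55 and -0.43 (adjusted p = 0.000577 and 0.00536 by edgeR). Of the 7 leucocyte markers tested, 1 was higher and 2 lower in 4T1.2 than in 4T1 (median -0.43, with 19.3% of all genes called). In 66cl4 against 67NR, 2 of the 7 were higher and 5 lower (median -0.68, with 44.7% of all genes called). The higher ones were *S100a8*, a neutrophil calcium-binding protein gene, in 4T1.2 (21.9 RPKM, with 10.2 in 4T1), and *Laptm5* and *Vav1* in 66cl4, from at most 35 and 11 counts in a library. Against 66cl4 and 67NR together, 4 were higher and 2 lower in 4T1 and 4T1.2 (median 0.97, with 76.7% of all genes called). The 2 lower ones, opposite to *Lcp1*, were *Laptm5* and *Cd79a*, with log2 differences of -3.06 and -1.52, from at most 35 counts in a library.

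Epithelial markers were lower in 4T1.2 than in 4T1, as *Lcp1* and *Pls1* were, but not in 66cl4 relative to 67NR. Of 14 listed, 12 were tested, and 8 were called between 4T1.2 and 4T1, each as lower in 4T1.2 (median -1.05, with 19.3% of all genes called), among them *Epcam* (log2 difference -1.61) and *Cdh1*, the E-cadherin gene (-1.76). Between 66cl4 and 67NR, 3 of the 12 were higher and 1 was lower (median 0.29, with 44.7% of all genes called), a comparison in which *Lcp1* and *Pls1* were lower. The summed level of the epithelial markers was 1622 to 2134 RPKM in 4T1, 1137 to 1328 in 4T1.2, 418 to 419 in 66cl4 and 258.3 to 294.4 in 67NR. Without the keratin gene *Krt8*, the most abundant, it was 922.5 to 1247 RPKM in 4T1, 634.5 to 727.4 in 4T1.2, 83.0 to 84.5 in 66cl4 and 1.65 to 2.14 in 67NR. In 66cl4 most of that remainder was *Krt18*, another keratin gene, at 81.6 RPKM. Between the pairs 10 epithelial markers were called, each as higher in 4T1 and 4T1.2 (median 4.55, with 76.7% of all genes called). Mesenchymal markers, 12 in all, summed to 2748 to 3896 RPKM in 4T1, 2752 to 3440 in 4T1.2, 2084 to 2397 in 66cl4 and 1368 to 1425 in 67NR. Most of each sum was *Vim*, the vimentin gene, and without it the order turned, with 129.5 to 161.2 RPKM in 4T1, 114.0 to 133.0 in 4T1.2, 441.5 to 467 in 66cl4 and 333.9 to 335.3 in 67NR. In 4T1 and 4T1.2, 2 of the mesenchymal markers were higher and 9 lower, with 76.7% of all genes called (median -4.74, or -3.43 with genes at 0 counts set to their bound). Within the pairs, 2 were higher and 1 lower in 4T1.2 than in 4T1 (median -0.20, or -0.08 so bounded), and 4 were higher and 1 was lower in 66cl4 than in 67NR (median 0.31, or 0.26). The part of these marker differences in the levels of *Lcp1*, *Pls1*, *Ezr* and *Coro1a* was not tested.

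Across the 8 libraries, which share a line in pairs, log2 CPM of *Lcp1* had a Pearson r of 0.59 with *Pls1*, 0.42 with *Ezr*, 0.10 with *Pls3*, -0.64 with *Coro1a* and -0.74 with *Fscn1*. *Pls3* had 0.85 with *Ezr* and -0.63 with *Pls1*. As only 4 lines underlie the 8 points, these are descriptions. The genes nearest to *Lcp1* were *Tuba4a* (r = 0.998), *Mtfr2*, *Kcnk1*, *Trib3* and *Padi2* (0.995 for the last), and those most opposed were *Trim30a* (-0.997), *Thbs1*, *Maoa*, *Socs3* and *Eef2k*. *Kcnk1*, a potassium channel gene, had 25.0 RPKM in 4T1, 10.2 in 4T1.2, 1.17 in 67NR and 0.429 in 66cl4, and *Thbs1*, the thrombospondin-1 gene, had 27.0, 54.7, 141 and 350.5 RPKM in the same order. Such likeness to *Lcp1* was common, since 12.3% of genes had r of at least 0.9 and 11.7% had -0.9 or less. Likeness to *Pls3* was rarer, with 0.977% and 1.72% of genes. The nearest to *Pls3* were *H3c2* (0.985), *Sacm1l*, *Spdya*, *Lipe* and *Morn2*, and the most opposed were *Trim59* (-0.986), *Isg20l2*, *C2cd5*, *Gcnt1* and *Nup133*.

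Genes around *Lcp1* had smaller differences. Within 1 Mb of it 11 genes were tested, and 2 were called between 4T1.2 and 4T1, both as higher in 4T1.2, with a median log2 difference of 0.31 against -2.64 for *Lcp1*. Of all genes, 19.3% were called in that comparison and 44.7% in 66cl4 against 67NR. *Rubcnl*, an autophagy gene and the nearest upstream neighbour tested, had a value of -1.61 (SE 0.90, adjusted p = 0.263 by edgeR) from a mean of at most 0.143 RPKM in any line. In 66cl4 against 67NR, 1 of the 11 was higher and 4 were lower, between -0.64 and 0.47, against -3.12 for *Lcp1*. The median of the 480 tested genes of chromosome 14 lay 0.24 above that of all genes in 4T1.2 against 4T1, the other direction from *Lcp1*, and 0.53 above it in 4T1 and 4T1.2 against 66cl4 and 67NR. Around *Pls1*, 3 of 17 genes were higher and 2 lower in 4T1.2 than in 4T1, between -2.57 and 0.83, the lowest being *Trpc1*, a calcium channel gene, at -2.57 (SE 0.19, adjusted p = 3.26e-05 by edgeR). In 66cl4 against 67NR, 8 of these 17 were higher and 3 lower, between -2.04 and 2.03. *Pcolce2*, a procollagen processing enhancer gene, had the lowest value there, -2.04 (SE 0.11, adjusted p = 8.47e-07 by edgeR), in the direction of *Pls1*, and *Trpc1* was 0.47 higher on the log2 scale (SE 0.15). On the X chromosome, which carries *Pls3*, the median of 440 genes lay 0.27 above all genes in 4T1.2 against 4T1 and -0.43 from it in 4T1 and 4T1.2 against 66cl4 and 67NR, where *Pls3* itself had 0.02 and 0.18.

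**Figure D5:**
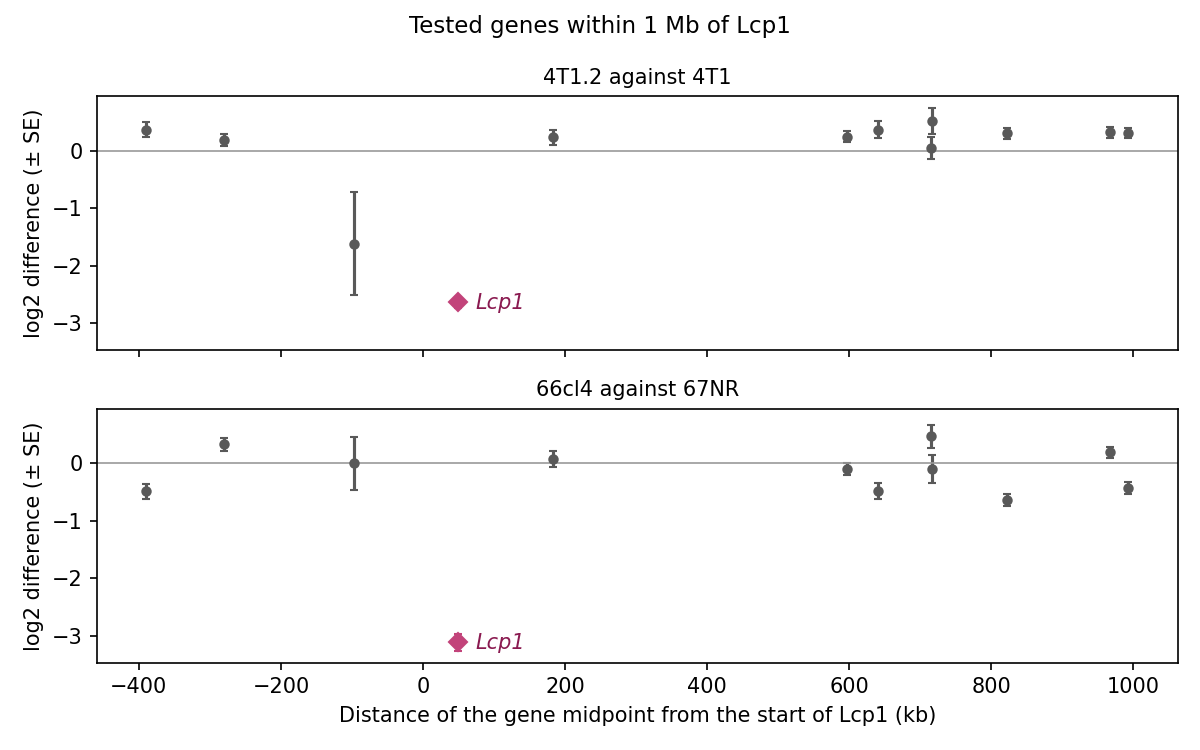
Fitted log2 difference (points, with SE bars) of the 11 tested genes within 1 Mb of *Lcp1* and of *Lcp1* itself (diamond) against distance from its start in kb, for 4T1.2 minus 4T1 above and 66cl4 minus 67NR below. *Lcp1* lies at -2.64 and -3.12, and the neighbours lie between -1.61 and 0.52 above and between -0.64 and 0.47 below.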

How the data were processed

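RNA from 4T1.2, 4T1, 66cl4 and 67NR cells was sequenced by the authors after TruSeq RNA v2 preparation, with 2 biological replicates per line. The values the authors deposited are raw counts per Entrez gene, and the submitters' processing notes name mm10 and featureCounts. The study aligned its endothelial reads with Rsubread and treated these libraries similarly; the strand setting is not given in the sources used here. The labels write 66cl4 with the digit 1. Of 27179 identifiers, 25275 (93.0%) matched a gene table. After filterByExpr (15269 genes), ribosomal, predicted and unmatched genes (5.33% to 7.93% of counts) were removed, leaving 13924. Counts were tested with edgeR 4.0.16's legacy quasi-likelihood F-test (limma 3.58.1, R 4.3.3) with TMM scaling, a mean per line over 8 libraries, 4 residual degrees of freedom, a prior count of 0.125 and Benjamini-Hochberg adjustment at 0.05. The biological coefficient of variation was 9.74%. RPKM was computed here with TMM-scaled library totals and the file's gene lengths. Correlations used log2 CPM with a prior count of 2.

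Of each actin list, the genes past the threshold with the 2 highest and the 2 lowest signed log2 differences of 4T1 and 4T1.2 from 66cl4 and 67NR were named; *Scin*, *Itgb2*, *Trpc1*, *Pcolce2*, *Rubcnl* and the other markers and neighbours named were picked after their values were seen. Of the genes so named, 1 is not reported here. Bounds took 3 counts for a library at 0. Shared sequence used 75-base stretches of GENCODE transcripts on GRCm38, and promoters came from RefSeq. The members and lists were chosen with earlier results of these data known. Alternatives were DESeq2 size factors, DESeq2 1.42.0, limma-voom, no low-count filter or a minimum of 10 in every library, all annotated classes kept, the newer quasi-likelihood fit, the replicate number as a block, 4 libraries alone, each library left out, and raw counts for plastin shares. Figures were drawn with matplotlib 3.10.9 in Python 3.11.15.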

Additional observations from a re-analysis of the deposited data

How the results depend on the processing

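The calls of *Lcp1* and *Pls1* in both within-pair comparisons held under each alternative that could test them, 17 for *Lcp1* and 16 for *Pls1*, which could not be tested with at least 10 counts in every library. Their log2 differences ranged from -2.69 to -2.59 and from -3.13 to -3.05 in 4T1.2 against 4T1, and from -3.33 to -2.93 and from -5.18 to -4.19 in 66cl4 against 67NR. No result changed direction past the threshold. The number of all genes called in 4T1.2 against 4T1, 2685 with all libraries, was 1727 with the 4 libraries alone and ran from 1372 (without 4T1.2 replicate 1) to 3107 (without 4T1 replicate 1) when a library was left out; it was 1427 without 4T1.2 replicate 2. In 66cl4 against 67NR, 6218 genes were called, with 4144 (without 67NR replicate 2) to 6939 when a library was left out. The shared spread then rested on fewer libraries, but as the upper ends of these ranges show, calls could also rise. The cause of these shifts was not tested. By raw counts, which favour the longer *Lcp1* transcript, its plastin share was 19.8% in 4T1.2, 60.9% in 4T1 and 1.76% in 67NR.

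With at least 10 counts in every library, which leaves fewer genes to test, calls between the pairs of lines fell from 8 to 1 for brush border genes, from 5 to 3 for coronins and for actins, transgelins and calponins, from 10 to 4 for epithelial, from 6 to 2 for leucocyte and from 11 to 6 for mesenchymal markers.

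Same-numbered libraries of different lines had deviations that correlated weakly or not at all (r from -0.123 to 0.27, the highest for 4T1.2 with 4T1). The labels link such libraries by number only, and 2 libraries per line cannot show whether they shared a batch. With that number as a block, 2884 and 6424 genes were called in the 2 comparisons, against 2685 and 6218 without it. The members called were 3 and 5 with the block, as without it. Transcripts of few counts limit *Vil1*, *Pls1* in 66cl4 and *Coro1a* in 4T1.2.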
